A study of Mus musculus with 4 samples.

Results

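The WNT genes described here are those whose name on the arrays begins with Wnt, Fzd, Dkk or Sfrp and a digit, together with Lrp5, Lrp6, Wif1, Frzb, Axin1, Axin2, Ctnnb1, Apc, Lef1, Tcf7l1, Tcf7l2, Kremen1, Porcn and Lgr5. The rule found 51 genes, read by 77 probes, among 28026 genes and other named features on the arrays. They comprise 19 ligands, 12 receptors, 11 secreted antagonists with the receptor Kremen1, and 9 intracellular, nuclear and other genes. WNT proteins are secreted lipid-modified ligands that bind Frizzled receptors and the LRP5 or LRP6 co-receptor. Binding stops a complex of AXIN, APC and kinases from degrading beta-catenin, which then acts with TCF and LEF factors on target genes such as Axin2. In the thymus, WNT signals are known to bear on the epithelium and its master regulator Foxn1, and thymocytes use TCF and LEF factors in their own development.

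Expression was measured in thymic epithelial cells (TECs), sorted as CD45- EpCAM+ cells, 4 days after tamoxifen had been given to induce the deletion of Meis1, a homeobox transcription factor. All mice carried K14-CreERT2, a tamoxifen-activated Cre recombinase under the keratin 14 promoter, and all were injected at 3 weeks of age with 1 mg of tamoxifen on each of 3 days. In Meis1-CKO mice both Meis1 alleles were floxed (Meis1fl/fl), and in the controls, which the labels call WT, 1 allele was floxed and the other normal (Meis1fl/+). Cells were pooled from 6 mice, and 2 pools per genotype came from 2 independent experiments. Thus n is 2 pools in each group throughout, with 1 single-colour array for each pool, and p-values measure the spread between these pools. Keratin 14 marks only some TECs, and what share of the sorted cells had lost Meis1 is not known here.

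Control 1 and Meis1-CKO 1 shared 1 slide and scan (slide 1), and control 2 and Meis1-CKO 2 another (slide 2). Levels are log2 signals relative to the 75th percentile of each array, so that 0 is the level of that percentile. Levels of different probes cannot be set against each other. On each array 58.6% to 63.6% of the spots were well above background, and no spot was saturated. Meis1-CKO 2 stood apart, with correlations over 16766 tested features of 0.857 to 0.885 with the other arrays, which correlated at 0.936 to 0.943 among themselves. All 7 pan-TEC markers, Epcam, Foxn1 and Krt8 among them, were well above background on all 4 arrays, as were all 7 cortical and all 8 medullary markers. Meis1 itself was read by 2 probes. One read -0.05 and -0.84 in control 1 and 2, against -0.37 and -2.02 in Meis1-CKO 1 and 2, and the other -3.12 and -3.16 in the controls against -3.71 and -4.67 in Meis1-CKO, where it was not well above background. Whether either probe reads the floxed part is not known here, so these signals do not check the labels.

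The arrays read each transcript through probes of 60 bases. The 3 probes below are shown because each spans an intron of its gene, so that it reads spliced transcript, and because results on receptors, ligands and the nuclear factor Lef1 rest on them. The Fzd3 probe lies at chr14:65831004-65853753 on the minus strand, the Wnt4 probe at chr4:136851690-136852258 on the plus strand and the Lef1 probe at chr3:130907851-130926012 on the plus strand, all on mm9 as the array files give them.
Fzd3 probe: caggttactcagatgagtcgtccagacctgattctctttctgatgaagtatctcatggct
Wnt4 probe: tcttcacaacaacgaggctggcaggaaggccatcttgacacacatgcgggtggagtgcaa
Lef1 probe: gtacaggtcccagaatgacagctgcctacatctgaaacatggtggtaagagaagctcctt

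For 32 of the 51 genes a RefSeq promoter table of the build GRCm38.p6 held at least 1 window, 40 windows in all. The 250 bases before each start site were searched on both strands for TGACAG, the core bound by MEIS and TGIF homeodomains, and for CTTTGAT and CTTTGAA, which TCF and LEF factors bind. Each printed window has at most 1 match, so that no matches overlap there. TGACAG was present in 5 of the 40 windows (12.5%), belonging to Lef1, Tcf7l1, Wnt1, Wnt3 and Wnt4, against 15.9% of all 32851 windows. CTTTGAT or CTTTGAA was present in 3 of the 40 (7.5%), belonging to Dkk1, Wnt11 and Wnt5b, against 7.48% of all windows. The shares among the WNT genes were thus close to those among all promoters. The window of Wnt4 (chr4:137277385-137277634, plus strand) is shown for its TGACAG and that of Dkk1 (chr19:30549497-30549746, minus strand) for its CTTTGAA, both in capitals. That of Fzd1 (chr5:4758217-4758466, minus strand), the receptor gene with the largest positive difference below, held none of the motif letters.
Wnt4 promoter: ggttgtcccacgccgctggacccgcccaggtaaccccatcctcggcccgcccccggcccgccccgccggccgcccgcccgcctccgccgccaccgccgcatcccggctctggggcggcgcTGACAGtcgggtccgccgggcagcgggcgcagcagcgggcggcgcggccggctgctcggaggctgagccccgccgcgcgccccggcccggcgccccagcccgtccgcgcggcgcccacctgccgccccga
Dkk1 promoter: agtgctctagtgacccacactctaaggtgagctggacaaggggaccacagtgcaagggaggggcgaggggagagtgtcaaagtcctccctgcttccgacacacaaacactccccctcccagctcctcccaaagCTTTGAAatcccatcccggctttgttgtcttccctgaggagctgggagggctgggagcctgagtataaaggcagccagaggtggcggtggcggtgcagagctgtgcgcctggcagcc
Fzd1 promoter: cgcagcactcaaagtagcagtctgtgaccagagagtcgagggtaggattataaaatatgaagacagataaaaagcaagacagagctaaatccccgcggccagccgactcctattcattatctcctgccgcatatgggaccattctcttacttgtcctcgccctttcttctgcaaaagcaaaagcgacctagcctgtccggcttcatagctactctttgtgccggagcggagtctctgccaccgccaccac

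Which WNT genes gave a signal in these cells was examined first. Of the 51 genes, 26 had a probe well above background on all 4 arrays, 16 on 1 to 3 arrays and 9 on none. The ligands were the sparsest group. Wnt10a, Wnt10b, Wnt11, Wnt2b, Wnt3, Wnt4 and Wnt6 were above background on all 4 arrays and Wnt9a on 3, whereas Wnt1, Wnt16, Wnt5a, Wnt8a and Wnt8b were above it on none. All 12 receptors were above background on at least 1 array and 8 of them on all 4, namely Fzd1, Fzd10, Fzd2, Fzd5, Fzd6, Fzd7, Lrp5 and Lrp6. Among the antagonists, Dkk1, Dkk2, Dkk3, Kremen1, Sfrp1 and Sfrp2 were above background on all 4 arrays, and Dkk4, Frzb and Wif1 on none. Of the remaining genes, Apc, Axin2, Ctnnb1, Tcf7l1 and Tcf7l2 were above background on all 4, and Lgr5, a receptor for R-spondins and a stem cell marker of the gut, on none. The number of WNT genes above background was 29 and 33 in control 1 and 2, against 36 and 32 in Meis1-CKO 1 and 2. Of all probes, 58.0% and 60.9% were well above background in the controls and 63.0% and 60.8% in Meis1-CKO. Control 1 was thus lowest and Meis1-CKO 1 highest by both measures. A signal that is not well above background does not show that a transcript is absent.

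**Figure D1:**
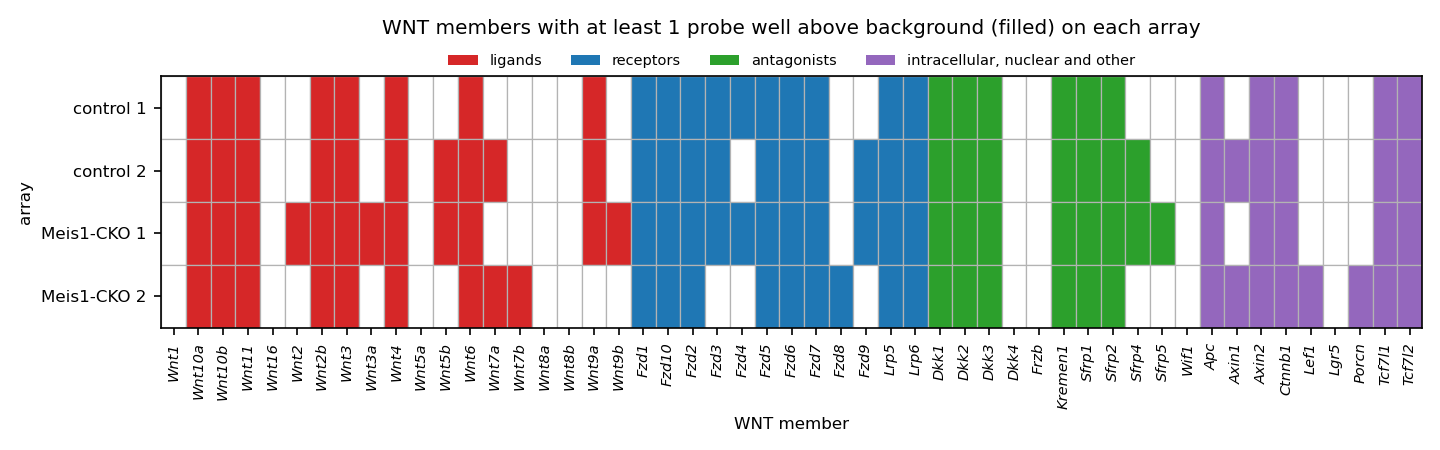
Each column is 1 of the 51 WNT genes and each row 1 array; a filled cell marks a gene with at least 1 probe well above background on that array, coloured by role. Of the genes, 26 are filled on all 4 arrays and 9 on none, and incomplete columns are most numerous among the ligands.

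A gene was tested where one of its probes gave a signal well above background in both pools of either genotype, which held for 28 of the 51 WNT genes. The other 23 comprise the 9 without a signal and 14 above background on 1 or 2 arrays: Axin1, Fzd4, Fzd8, Fzd9, Lef1, Porcn, Sfrp4, Sfrp5, Wnt2, Wnt3a, Wnt5b, Wnt7a, Wnt7b and Wnt9b. No WNT gene differed between Meis1-CKO and control by limma at an adjusted p under 0.05, as was the case for 0% of the 16766 features tested. At an unadjusted p under 0.05, limma gave 0 of the 28 WNT genes, against 2.78% of all features (466). The adjusted p of every WNT gene was 1.00, and the standard errors of their log2 differences ran from 0.43 to 1.21. The 95% interval of each reached past a 2-fold difference on at least 1 side.

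In place of a call, the arrays themselves can be described. The Meis1-CKO and control arrays did not overlap, with at least a 2-fold difference in means, for 3 of the 28 genes (10.7%): Fzd1 was higher and Fzd3 and Sfrp1 were lower in Meis1-CKO. The same was true of 7.29% of all features, 3.33% higher and 3.97% lower. Fzd3 entered the test through the controls alone, where it was higher, since its Meis1-CKO 2 signal was not well above background. Among genes with a probe above background on all 4 arrays, Fzd1 and Sfrp1 met the rule, 2 of 26, against 3.99% of all features. At any size the groups did not overlap for 6 of the 28 (21.4%), with Apc, Ctnnb1 and Fzd6 added, against 25.6% of all features. These shares lie near the background. The genes depend on the pools: 13 of the 28 met the 2-fold rule without Meis1-CKO 1 (28.1% of all features), 6 without control 2 (16.8%), and without Meis1-CKO 2 it was met by Dkk2, Sfrp2 and Wnt9a alone (9.5%).

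The 2 slides gave different pictures. The mean was lower in Meis1-CKO for 20 of the 28 genes (71.4%), against 55% of all features. In Meis1-CKO 2, 23 of the 28 genes (82.1%) had their lowest level of the 4 arrays, as did 37% of all features. Only Fzd1 was highest there (29.1% of all features). In Meis1-CKO 1, 11 of the 28 (39.3%) had their highest level, against 21.6%, and Lrp5 alone its lowest (21.7% of all features). On slide 2, 25 of the 28 (89.3%) read lower in Meis1-CKO than in control, against 56.3% of all features, and 13 (46.4%) read at least 2-fold lower, against 17.1%. At least 2-fold higher on slide 2 was Fzd1 alone (11.3% of all features). On slide 1, 10 of the 28 (35.7%) read lower in Meis1-CKO, against 50.3% of all features, none at least 2-fold (5.96% of all features), while Dkk2, Dkk3, Wnt2b and Wnt9a read at least 2-fold higher (14.3%, against 8.5%). Higher on slide 1 and lower on slide 2 were 16 of the 28 (57.1%), against 29.5% of all features, and Lrp5 alone went the other way (23.5%). Lower on both slides were 9 (32.1%, against 26.8%), namely Ctnnb1, Fzd2, Fzd3, Fzd5, Fzd6, Fzd7, Kremen1, Sfrp1 and Wnt10a, and higher on both were Apc and Fzd1 (7.14%, against 20.2%). These genes are listed by the probe that stands for each. Another tested probe read higher for Kremen1 on slide 2 (0.48) and for Ctnnb1 on slide 1 (0.16). Of the 6 tested Apc probes, 2 read lower on both slides. The median difference of the 28 genes was 0.31 on slide 1 and -0.92 on slide 2, beside -0.0046 and -0.12 over all features. The median over both was -0.22, beside -0.06 over all features, and it was 0.19 without Meis1-CKO 2 and -0.64 without Meis1-CKO 1.

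**Figure D2:**
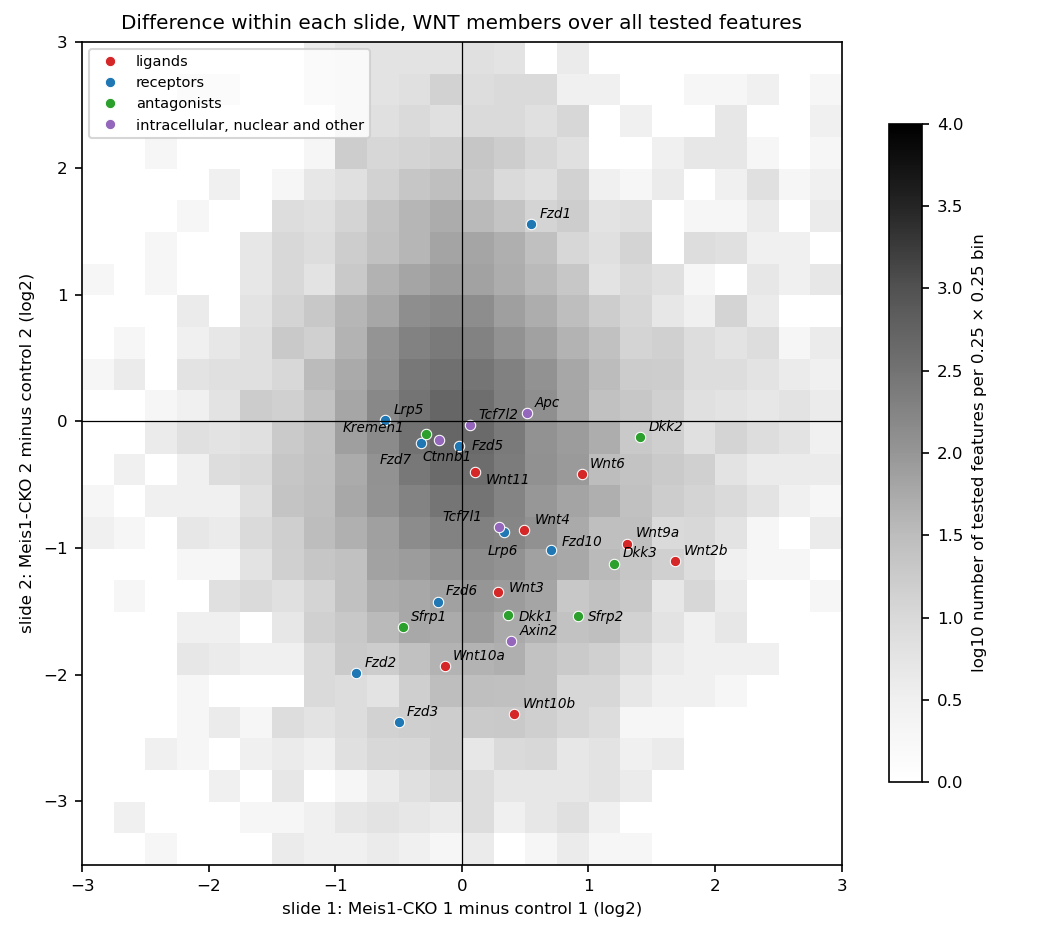
The horizontal axis gives Meis1-CKO 1 minus control 1 and the vertical axis Meis1-CKO 2 minus control 2, both as log2 differences; points are the 28 tested WNT genes, coloured by role, over a grey histogram, on a log10 scale, of those tested features that lie within the axes. Of the 28 points, 25 lie below the horizontal zero line, and Fzd1 is the only one at least 2-fold above it.

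Marker levels of several cell types also differed between the pools, not all in the same order. In Meis1-CKO 2 the median level of the 7 pan-TEC markers was 3.22, whereas control 1, control 2 and Meis1-CKO 1 had 4.41, 4.15 and 4.54. All 7 read lower on slide 2, against 56.3% of all features. The summed signal of these markers, in units of the 75th percentile, was 208 and 191 in the controls and 211 and 107 in Meis1-CKO 1 and 2. The 7 cortical markers summed to 125 and 59.3 in the controls and to 99.6 and 48.3 in Meis1-CKO, and the 8 medullary markers to 318 and 211 in the controls and to 205 and 120 in Meis1-CKO. A sum is carried mainly by its brightest probes. The medullary medians overlapped, at 3.9 and 4.9 in the controls and 4.1 and 3.4 in Meis1-CKO. Of the 8 medullary markers, 4 read lower on slide 1 and 8 on slide 2, against 50.3% and 56.3% of all features. The 12 tested myeloid and dendritic markers summed to 29.3 and 35.9 in the controls and to 33.7 and 142 in Meis1-CKO, and 13 of 13 were above background in Meis1-CKO 2. The 6 tested fibroblast markers summed to 13.5 and 7.56 in the controls and to 12.6 and 3.24 in Meis1-CKO, with Twist1 above background on no array. The 12 tested thymocyte markers summed to 53.4 and 20.0 in the controls and to 6.90 and 45.8 in Meis1-CKO, with Rag2 above background on no array. The 4 tested endothelial markers summed to 0.75 and 1.27 in the controls and 1.24 and 1.24 in Meis1-CKO, with Emcn above background on no array. The 3 tested erythroid markers summed to 7.34 and 2.90 in the controls and 5.08 and 1.35 in Meis1-CKO, and Klf1 was above background on no array. The 4 tested B cell markers summed to 4.32 and 4.24 in the controls and 3.20 and 2.16 in Meis1-CKO. The part of these cell types in the WNT differences was not tested. In sorted pools, fewer cells of a type and less RNA per cell cannot be told apart.

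Among the ligands, 8 were tested, and none rose or fell by the test. All 8 read lower in Meis1-CKO on slide 2, against 56.3% of all features. Of the 8, 7 read higher on slide 1 and lower on slide 2 (87.5%, against 29.5% of all features). Wnt10a, a ligand of skin and its appendages, read 1.65 and 1.51 in control 1 and 2, against 1.52 and -0.43 in Meis1-CKO 1 and 2. All arrays but Meis1-CKO 2 were thus alike, and Meis1-CKO 2 lay far below them. The mean of Meis1-CKO less that of control was -1.03 (SE 0.72, limma adjusted p = 1.00) and, without Meis1-CKO 2, -0.06. Its relative Wnt10b read -0.38 and 0.36 in the controls and 0.03 and -1.95 in Meis1-CKO. Again Meis1-CKO 1 lay between the controls, and the difference of -0.95 (SE 0.76, limma adjusted p = 1.00) became 0.04 without Meis1-CKO 2.

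Wnt2b, a ligand made in many tissues by mesenchyme, followed another order. It read -0.63 and 1.12 in control 1 and 2, against 1.06 and 0.01 in Meis1-CKO 1 and 2, so that both Meis1-CKO pools lay between the control pools. Its difference was 0.29 (SE 0.74, limma adjusted p = 1.00), made of 1.69 on slide 1 and -1.10 on slide 2. Wnt4, known from TECs and from kidney and gonad development, read -2.44 and -1.89 in the controls and -1.95 and -2.75 in Meis1-CKO, through the intron-spanning probe printed above. The groups overlapped, and the difference was -0.18 (95% interval -1.46 to 1.10). Wnt3 read -1.80, -1.85, -1.51 and -3.19, Wnt6 -2.53, -2.10, -1.59 and -2.52 and Wnt11 -2.09, -2.13, -1.99 and -2.53 across control 1, control 2, Meis1-CKO 1 and Meis1-CKO 2. Meis1-CKO 1 was the highest array for each of these 3 ligands. Wnt9a did likewise at -1.42, against -2.73 and -2.93 in the controls, and was not well above background in Meis1-CKO 2 (-3.90).

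Of the 6 ligands above background on 1 or 2 arrays, Wnt2, Wnt3a and Wnt9b were so in Meis1-CKO 1 only, Wnt7b in Meis1-CKO 2 only, Wnt5b in control 2 and Meis1-CKO 1, and Wnt7a in control 2 and Meis1-CKO 2.

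**Figure D3:**
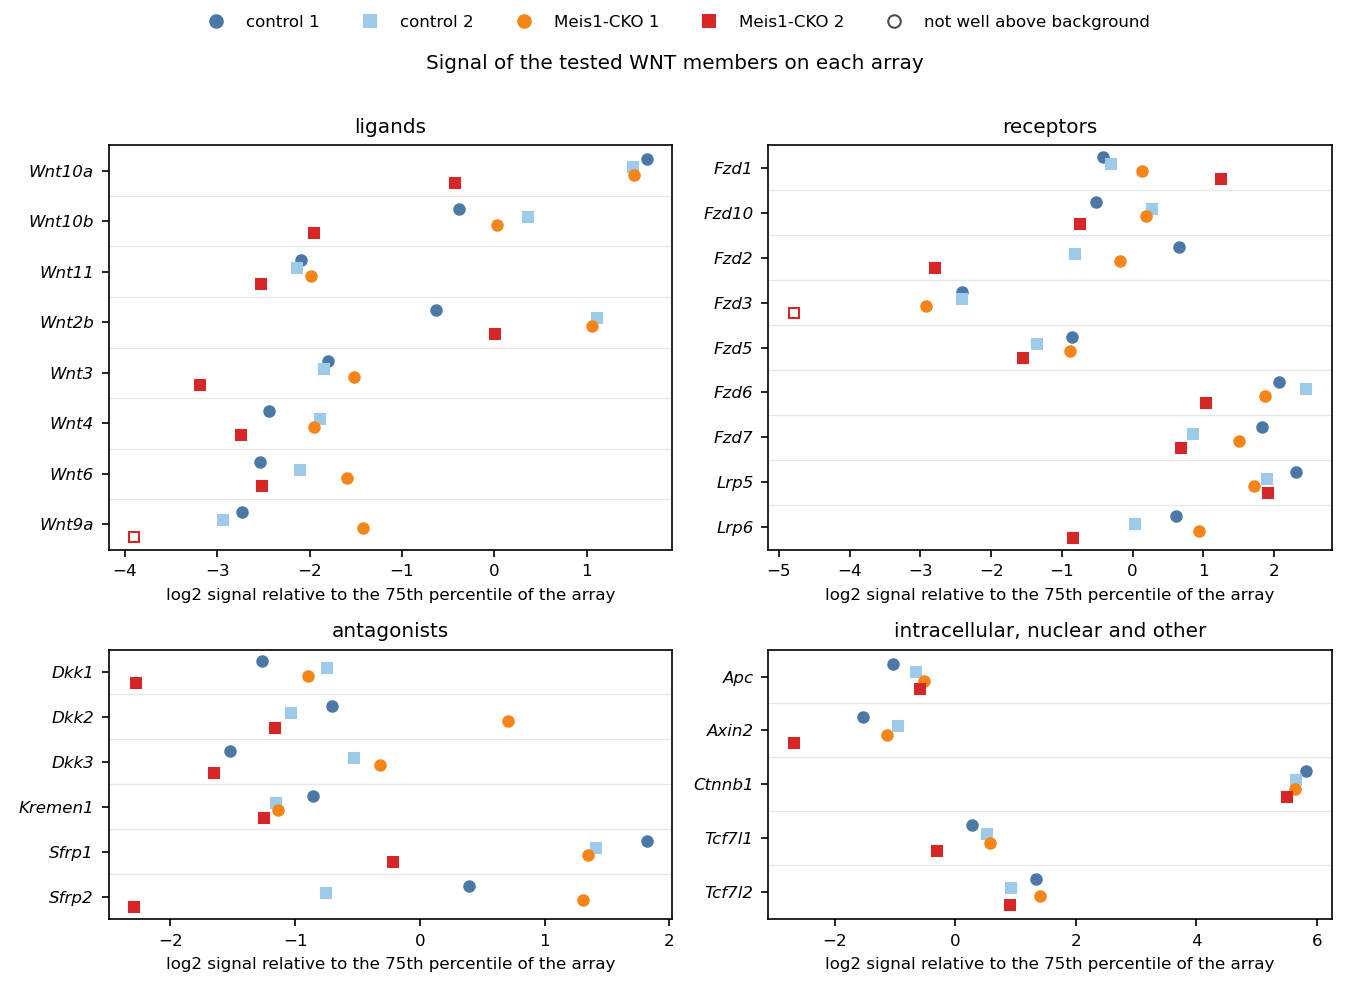
Each row is a tested WNT gene, with 1 panel per role; the horizontal axis is the log2 signal of the probe that stands for the gene, relative to the 75th percentile of the array. Circles are slide 1 and squares slide 2, blue control and orange or red Meis1-CKO, and open symbols are not well above background. The red squares of Meis1-CKO 2 lie furthest left in 23 of the 28 rows.

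Among the receptors, 9 were tested, and none rose or fell by the test. Fzd1, a Frizzled receptor, read -0.41 and -0.31 in control 1 and 2, against 0.13 and 1.25 in Meis1-CKO 1 and 2. Both Meis1-CKO pools thus lay above both controls, by 0.55 on slide 1 and 1.56 on slide 2. The difference was 1.05 (SE 0.54, limma adjusted p = 1.00, 95% interval -0.30 to 2.40), and 0.49 without Meis1-CKO 2. Fzd1 has 1 probe on the arrays, so no other probe bears on it.

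Fzd3, which acts in planar cell polarity and axon guidance, read -2.42 and -2.42 in the controls and -2.92 and -4.79 in Meis1-CKO, where the signal of Meis1-CKO 2 was not well above background. Both Meis1-CKO pools lay below the controls, which were alike. The difference of -1.44 (SE 0.70, limma adjusted p = 1.00) therefore rests in part on a dim signal, and was -0.50 without Meis1-CKO 2. The other Fzd3 probes, not tested, were above background in Meis1-CKO 1 only, at -2.97 against -3.20 and -3.97 in the controls for the first and at -1.64 against -3.92 and -3.99 for the other. In Meis1-CKO 2 they read -5.44 and -4.75. Only the Meis1-CKO 1 signals of these probes were measured above background.

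Fzd2 was read by 2 tested probes, and both read lower in Meis1-CKO on each slide. The brighter read 0.66 and -0.81 in control 1 and 2, against -0.17 and -2.79 in Meis1-CKO 1 and 2. The groups overlapped, since Meis1-CKO 1 exceeded control 2, but each Meis1-CKO pool lay below the control of its slide. The difference was -1.41 (SE 1.00, limma adjusted p = 1.00), and -1.96 (SE 1.11) at the other probe, which was not well above background in Meis1-CKO 2. With the replicate number as a block, Fzd2 was the 1 WNT gene of 28 with an unadjusted limma p under 0.05, as were 661 of the 16766 features. Its adjusted p was 1.00. Fzd6, which is known for its part in planar polarity of skin and hair, read 2.07 and 2.46 in the controls and 1.88 and 1.03 in Meis1-CKO. The groups did not overlap, with a difference of -0.81 (SE 0.51, limma adjusted p = 1.00), of which slide 1 showed -0.19 and slide 2 -1.42.

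The remaining receptors differed little in their means. Fzd7, a Frizzled of stem and progenitor cells, read 1.83 and 0.86 in the controls and 1.51 and 0.68 in Meis1-CKO. The slides were further apart than the genotypes, and the difference was -0.25 (SE 0.57, limma adjusted p = 1.00). The co-receptor gene Lrp5 read 2.32 and 1.90 in the controls and 1.71 and 1.91 in Meis1-CKO, with a difference of -0.30 (SE 0.44, limma adjusted p = 1.00, 95% interval -1.41 to 0.81). It was the 1 WNT gene with its lowest level in Meis1-CKO 1. Lrp6 read 0.61, 0.04, 0.95 and -0.84, Fzd5 -0.86, -1.36, -0.88 and -1.55, and Fzd10 -0.52, 0.28, 0.18 and -0.74 across control 1, control 2, Meis1-CKO 1 and Meis1-CKO 2. The genotypes overlapped for all 3. Fzd4 was above background on both arrays of slide 1 and neither of slide 2, Fzd9 in control 2 and Meis1-CKO 1, and Fzd8 in Meis1-CKO 2 only.

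Among the antagonists, the Sfrp genes encode soluble Frizzled-like proteins that bind WNT ligands, and Dkk1, Dkk2 and Dkk4 encode ligands of LRP5, LRP6 and Kremen receptors. Sfrp1 read 1.82 and 1.41 in control 1 and 2, against 1.35 and -0.22 in Meis1-CKO 1 and 2. Meis1-CKO 1 lay just below control 2, and Meis1-CKO 2 well below all others. The difference was -1.05 (SE 0.65, limma adjusted p = 1.00), made of -0.47 (slide 1) and -1.63 (slide 2), and was -0.26 without Meis1-CKO 2. The other Sfrp1 probe gave -1.12 (SE 0.87), where Meis1-CKO 1 (1.38) lay between the controls (1.57 and 0.96).

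Sfrp2 was the least even of the WNT genes. It read 0.39 and -0.75 in the controls and 1.31 and -2.29 in Meis1-CKO, so that the Meis1-CKO pools held both the highest and the lowest value. Its difference of -0.31 had an SE of 1.21 (limma adjusted p = 1.00), and it was 1.49 without Meis1-CKO 2. Dkk2 read -0.70 and -1.03 in the controls and 0.70 and -1.16 in Meis1-CKO. Meis1-CKO 1 stood above 3 like arrays, and the difference of 0.64 (SE 0.71, limma adjusted p = 1.00) was -0.29 without Meis1-CKO 1. Over the same arrays, the median level of the 6 tested fibroblast markers was 0.83 and 0.07 in control 1 and 2, against 1.00 and -1.64 in Meis1-CKO 1 and 2, the same order of arrays as for Sfrp2. All 6 of these markers read lower in Meis1-CKO on slide 2, against 56.3% of all features. On slide 1, Col1a1, Col1a2 and Col3a1 read higher and Dcn, Fbn1 and Pdgfrb lower. How far fibroblasts carried through the sort enter these values was not tested.

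Dkk1, itself a known beta-catenin target, read -1.26 and -0.75 in the controls and -0.90 and -2.27 in Meis1-CKO, a difference of -0.58 (SE 0.61). Dkk3 read -1.52, -0.53, -0.32 and -1.65 and the Dkk receptor gene Kremen1 -0.86, -1.15, -1.14 and -1.25 across control 1, control 2, Meis1-CKO 1 and Meis1-CKO 2. The genotypes overlapped for each of these 3 genes, and Kremen1 varied least among the antagonists. Sfrp4 was above background in control 2 and Meis1-CKO 1, and Sfrp5 in Meis1-CKO 1 only.

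Among the intracellular and nuclear genes, 5 were tested, and none rose or fell by the test. Ctnnb1, which encodes beta-catenin, an adhesion protein as well as the effector of WNT signals, read 5.82 and 5.66 in control 1 and 2, against 5.64 and 5.51 in Meis1-CKO 1 and 2. The groups did not overlap, but the gap between Meis1-CKO 1 and control 2 was a fraction of the spread within each group. The difference was -0.17 (SE 0.43, limma adjusted p = 1.00, 95% interval -1.23 to 0.90), and the other Ctnnb1 probes gave -0.14 and -0.29, with overlapping groups. Tcf7l2, a TCF factor, read 1.34 and 0.93 in the controls and 1.40 and 0.90 in Meis1-CKO. At this probe the slides differed more than the genotypes, with a difference between genotypes of 0.02 (95% interval -1.14 to 1.18, limma adjusted p = 1.00). The brighter of the other Tcf7l2 probes did not follow the slides, at 1.03, 1.06, 1.40 and 0.60. The dimmer did, at -1.72 and -1.98 in control 1 and Meis1-CKO 1, against -4.15 and -2.81 in control 2 and Meis1-CKO 2. It was not well above background in control 2. Tcf7l1, known mainly as a repressor of the family, read 0.28 and 0.52 in the controls and 0.57 and -0.31 in Meis1-CKO, a difference of -0.27 (SE 0.50, limma adjusted p = 1.00).

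Axin2, a negative regulator that beta-catenin itself induces, read -1.53 and -0.95 in the controls and -1.14 and -2.68 in Meis1-CKO. Meis1-CKO 1 lay between the controls and Meis1-CKO 2 below all. The difference was -0.67 (SE 0.65, limma adjusted p = 1.00), made of 0.39 on slide 1 and -1.73 on slide 2, and it was 0.10 without Meis1-CKO 2. Axin1, porcupine (Porcn, which lipidates WNT ligands in the secretory pathway) and Lef1 were too dim to be tested. Axin1 was above background on both arrays of slide 2, and Porcn in Meis1-CKO 2 only.

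Apc, the scaffold of the degradation complex, was read by 6 tested probes that went different ways. The brightest read -1.03 and -0.66 in the controls and -0.52 and -0.59 in Meis1-CKO, a difference of 0.29 (SE 0.44, limma adjusted p = 1.00). The probe nearest the 5′ end read -1.90 and -0.88 in the controls and -3.02 and -2.60 in Meis1-CKO. It was thus lower on both slides, with differences of -1.11 and -1.71, and of -1.41 for both (SE 0.54, limma adjusted p = 1.00). It was the 1 WNT probe with an unadjusted p under 0.05 when every probe was fitted on its own, as was the case for 708 of 24254 probes. The next probe, which spans an intron, went the other way on both slides, with a difference of 0.78 (SE 0.47, limma adjusted p = 1.00). Control and Meis1-CKO arrays did not overlap at any of the 6 probes, with 2 lower and 4 higher, so the direction for Apc depends on the probe. Over all features, each at 1 probe, 25.6% did not overlap at any size. All 6 Apc probes read the same 4 arrays. At the brightest probe, Meis1-CKO 2 (-0.59) lay just above control 2 (-0.66).

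**Figure D4:**
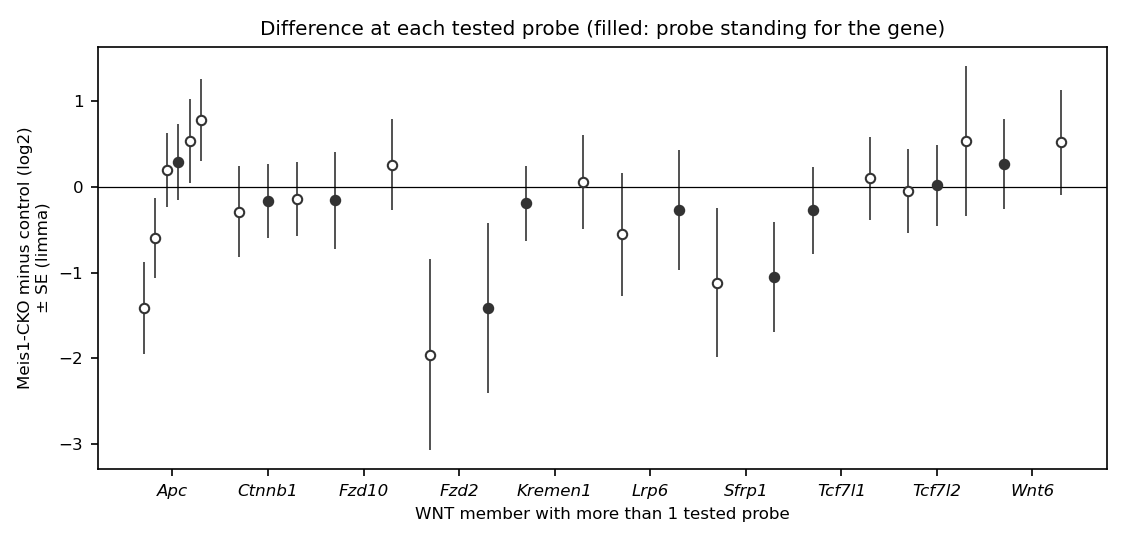
For each of the 10 WNT genes with more than 1 tested probe, points give the limma log2 difference of Meis1-CKO minus control at each probe, and bars 1 SE; filled points are the probes that stand for the gene. The 6 Apc probes run from -1.41 to 0.78, whereas both probes of Fzd2 and of Sfrp1 lie below 0.

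Of the 10 genes with several tested probes, 5 had probes of 1 sign only (Ctnnb1, Fzd2, Lrp6, Sfrp1 and Wnt6), and 5 had probes of both signs (Apc, Fzd10, Kremen1, Tcf7l1 and Tcf7l2). Outside Apc, the positive probes in the latter group reached 0.54 and the negative ones -0.27.

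Lef1, a nuclear partner of beta-catenin that is abundant in immature T cells, gave a signal in 1 pool. Its intron-spanning probe read -5.24 and -4.82 in control 1 and 2, against -5.58 and -1.67 in Meis1-CKO 1 and 2, and was well above background in Meis1-CKO 2 only. The other Lef1 probe read -5.46, -5.44, -5.79 and -4.03 in the same order and was above background on none. Tcf7, the related factor of T cells, read 2.62, 1.86, 1.27 and 3.34 and so was also highest in Meis1-CKO 2, and lowest in Meis1-CKO 1. The median level of the 12 tested thymocyte markers had the same extremes, at 0.33 and -0.32 in the controls and -1.76 and 0.85 in Meis1-CKO 1 and 2, and the myeloid and dendritic median was highest in Meis1-CKO 2 as well. By summed signal the thymocyte markers were highest in control 1 (53.4). Among single markers, Cd2, Cd3e, Cd4, Cd8a, Cd8b1 and Lck were highest in Meis1-CKO 2, Cd3d, Cd3g, Dntt, Ptcra and Rag1 in control 1, and Cd28 in Meis1-CKO 1. The part of carried-over leukocytes in the Lef1 signal was not tested.

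**Figure D5:**
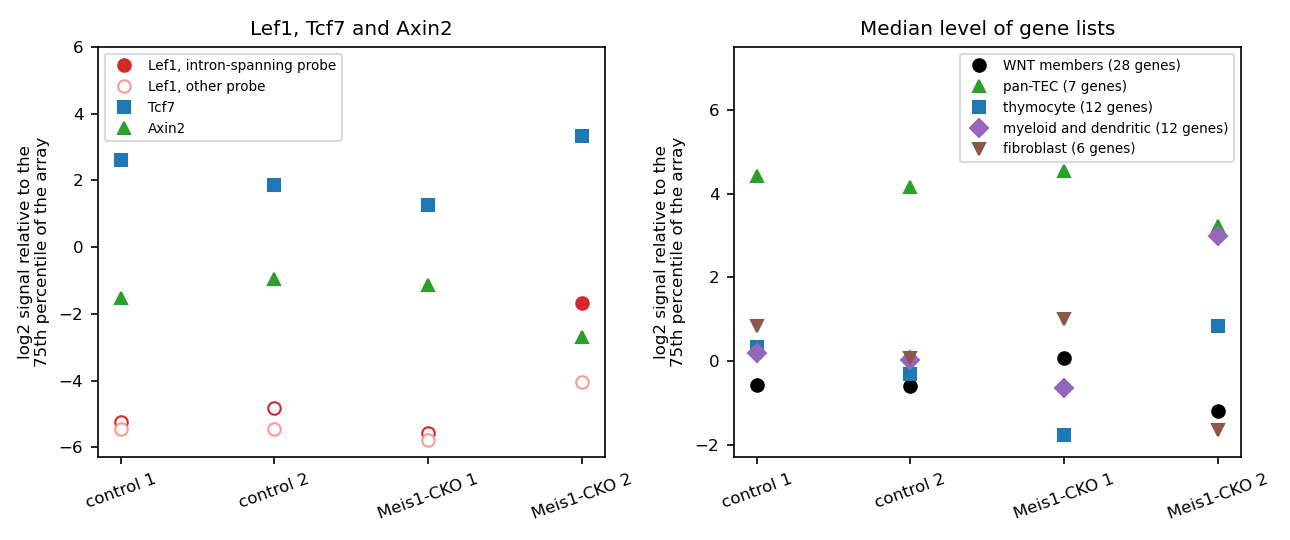
The left panel gives the log2 signal, relative to the 75th percentile of each array, of the 2 Lef1 probes, Tcf7 and Axin2 on the 4 arrays; open circles are not well above background. The right panel gives the median level of the tested WNT genes and of cell type marker lists on the same scale. Lef1 is above background at -1.67 in Meis1-CKO 2, where the myeloid and thymocyte medians are highest and the pan-TEC median is lowest.

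Other genes of the pathway were followed as a list of 52, of which 44 were tested. None rose or fell by limma at an adjusted p under 0.05, and 1 of the 44 had non-overlapping groups with at least a 2-fold difference, against 7.29% of all features. That gene was Sostdc1, a secreted antagonist of WNT and BMP signals, which read 3.23 and 2.77 in control 1 and 2, against 2.73 and 0.32 in Meis1-CKO 1 and 2. Meis1-CKO 1 lay just below control 2 and Meis1-CKO 2 far below, as for Sfrp1. The difference was -1.47 (SE 0.85, limma adjusted p = 1.00), and -0.27 without Meis1-CKO 2. The median difference of the 44 genes was -0.09, with -0.09 on slide 1 and -0.25 on slide 2. By slide, 27 of the 44 read lower on slide 1 and 25 on slide 2, against 50.3% and 56.3% of all features.

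Within that list, Vangl2, a core gene of planar cell polarity, read -1.05 and -0.75 in the controls and -1.91 and -1.80 in Meis1-CKO. Both Meis1-CKO pools were low to a like extent, with differences of -0.86 and -1.04 on slides 1 and 2, and of -0.95 over both (SE 0.43, limma adjusted p = 1.00). Vangl2 was singled out after its values had been seen, being just under 2-fold. Wls, which escorts WNT ligands to the cell surface, read 3.76, 2.63, 3.43 and 2.25 across control 1, control 2, Meis1-CKO 1 and Meis1-CKO 2, following the slides. Gsk3b, a kinase of the degradation complex, read 1.19, 0.94, 1.29 and 0.98 and did so too. The 2 were also picked after their values had been seen.

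Known targets of beta-catenin were a list of 20 genes, of which 12 were tested and 0 were called by limma. Their median difference was -0.22, with 0.06 on slide 1 and -0.79 on slide 2. On slide 2, 8 of the 12 read lower, against 56.3% of all features. Of the 12, Zcchc12 alone met the rule of non-overlapping groups with at least a 2-fold difference (7.29% of all features), at -2.68 and -1.50 in the controls and -2.82 and -3.41 in Meis1-CKO, where Meis1-CKO 2 was not well above background. Zcchc12 thus entered the test through the controls alone, where it was higher. Its difference was -1.02 (SE 0.58, limma adjusted p = 1.00). The list also went both ways in Meis1-CKO 2. The log2 difference on slide 2 was 1.45 for Ccnd1, which encodes cyclin D1, -1.85 for the negative regulator Apcdd1 and -1.73 for Axin2. These 3 were picked after their values had been seen. Notum, Sp5 and Lgr5 were above background on no array.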

How the data were processed

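Linear spot intensity values were used as the authors deposited them from Agilent Feature Extraction 9.5.3.1. Per the file headers they are detrended within each array and low signals were replaced by surrogates, with no scaling between arrays. cDNA had been amplified from 10 ng of RNA. Here 1639 control spots and 63 to 78 outlier spots per array were left out, the log2 signals of a probe's spots were averaged, and each array's 75th percentile was subtracted. Of 41153 probes, 24254 were tested. The brightest probe stood for its gene. Names are those of the array files; RefSeq (GRCm38.p6) matched 68 of the 77 WNT probes by accession and changed no name. limma 3.58.1 (lmFit, eBayes) in R 4.3.3 was fitted over all 4 arrays and 16766 features, with Benjamini-Hochberg adjustment. Intervals are limma's 95%. The fit was also run on simulated data with planted differences larger than those of the WNT genes. That run does not show the power of the test at the sizes seen here.

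The deposited log2 value table was made by steps not given in the sources used here. Differences between its columns matched those used here (slope 1 and correlation 1 over the 20818 probes detected on every array), so it is on the log2 scale with the direction unaltered. Each of its 41252 rows was centred on its median, and its column medians were 0.04, 0.09, -0.06 and -0.12 for control 1, control 2, Meis1-CKO 1 and Meis1-CKO 2. It served as an alternative.

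Same-numbered arrays shared a slide. Their deviations from the group means correlated at 0.13, and no label ties the number to a day or litter. The replicate number as a block is therefore an alternative. Pools of separate mice are compared, and the number of arrays limits the precision.

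Differences with errors are given for genes with non-overlapping groups and at least a 2-fold difference, the 3 with the strongest probe signals in each role, Ctnnb1, Axin2, Tcf7l1 and Tcf7l2, and genes whose probes differ in sign by over 0.5. From the other WNT and target lists, up to 4 genes that meet the first criterion are added. Lef1 was to be included but was too dim to test. Differences with errors for Fzd2, Wnt4, Dkk1 and single probes go beyond this rule and were chosen after their values had been seen. The members, lists and rules were chosen with earlier results of these data known. Single values of some marker genes are not reported here.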

Additional observations from a re-analysis of the deposited data

Results flagged for a closer look

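Of the 23 WNT genes left out of the test, 8 were well above background on 1 Meis1-CKO array and on neither control array. Their signals lie outside the tested comparison. The rule looked for this direction only, and the share over all features was not worked out. Meis1-CKO 1 had the largest share of all probes well above background (63.0%, against 58.0% and 60.9% in control 1 and 2). In Meis1-CKO 2, Lef1 read -1.67 (-5.24 and -4.82 in control 1 and 2), Fzd8 -1.50 (-4.75 and -5.31), Porcn -2.84 (-3.31 and -3.63) and Wnt7b -3.43 (-4.80 and -3.42). In Meis1-CKO 1, Sfrp5 read -3.20 (-4.92 and -3.90), Wnt2 -3.20 (-4.51 and -3.82), Wnt3a -3.44 (-5.53 and -4.70) and Wnt9b -3.09 (-4.60 and -4.03). None of these control values was well above background, so the sizes of the differences were not measured. The second Fzd8 probe was not above background on any array. Groups of 2 arrays are too small for a check of single outlying samples.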

How the results depend on the processing

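No WNT gene was called under any of the 14 other settings, which were quantile and median scaling, another base for the percentile, normexp background, 2 other filters, 2 other uses of probes, the replicate block, the deposited value table and leaving out each array in turn. With the replicate block, 0 were called, the median difference was -0.22 and the 3 genes with non-overlapping arrays were unaltered; the block changed no call. No paired design is stated. Normexp with an offset of 50 left 0 such genes in place of 3, where 0.853% of all features met that rule in place of 7.29%; the cause was not tested. Requiring all 4 arrays above background dropped Fzd3, the mean of a gene's probes dropped Sfrp1, every probe on its own added Apc, and quantile scaling and the other percentile base each added Wnt10a. Without 1 array the count ran from 3 to 13. It was 13 without Meis1-CKO 1 (28.1% of all features) and 6 without control 2 (16.8%), partly since a lone array overlaps less easily. Without Meis1-CKO 1, limma called 479 features and 0 WNT genes, the lowest adjusted p being 0.071 for Fzd3, with the single Meis1-CKO pool given the spread of the controls. Without Meis1-CKO 2 the count stayed at 3, but for Dkk2, Sfrp2 and Wnt9a, and limma called 1 feature.

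The median difference ran from -0.64 to 0.19 without 1 array, and reversed to 0.19 without Meis1-CKO 2. Outside the settings that left out an array, 1 of 178 named values changed sign, that of Apc as a mean over its probes (-0.034). Without 1 array, 12 of 72 did. Lowest and highest values were -1.44 and 0.10 for Axin2, -0.29 and 1.57 for Dkk2, -0.74 and 0.24 for Fzd7, -2.11 and 1.49 for Sfrp2, -0.71 and 0.17 for Tcf7l1, -0.23 and 0.27 for Tcf7l2, -1.94 and 0.040 for Wnt10b and -0.58 and 1.16 for Wnt2b. Fzd1 stayed between 0.49 and 1.61, Sfrp1 between -1.83 and -0.26 and Fzd3 between -2.37 and -0.50. Dim signals limit Fzd3, Wnt9a and Zcchc12.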
